A study of Mus musculus with 5 samples.

Results

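The glutathione, glucuronide and ester conjugation enzymes of the mouse fetal colon, with the pumps that export their products, were set side by side in HNF4 null embryos and their controls. The members were chosen by gene symbol: all probe sets annotated to a single symbol of the Ugt1, Ugt2, Gst, Mgst, Ces1 to Ces5 or Ephx families, or to Abcb1a, Abcc2, Abcc3, Abcg2, Nqo1, Gclc or Gclm. This gave 59 probe sets of 45 genes, among 22626 probe sets and 12393 genes in all. Total RNA of E18.5 colon was read on 1 Affymetrix array per embryo. The HNF4 null group was 3 embryos, null_59, null_60 and null_426, in which 2 floxed HNF4 alleles were combined with FoxA3Cre. The control group was 2 embryos, CONTROL_406 and CONTROL_421, in which FoxA3Cre was combined with 1 floxed allele. The controls were thus heterozygous and carried Cre, and colons without Cre were not analysed here. FoxA3Cre is named for Foxa3, a gene of the gut endoderm, while the arrays read the colon without separation of its layers. The labels do not say in which cells Cre was active.

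Conjugation makes foreign and internal compounds soluble for export. UDP-glucuronosyltransferases (Ugt) attach glucuronic acid in the endoplasmic reticulum, and glutathione S-transferases (Gst, Mgst) attach glutathione to reactive compounds. Carboxylesterases (Ces) and epoxide hydrolases (Ephx) open esters and epoxides, and ATP-driven pumps carry the products out of the cell. In the liver, HNF4 alpha is a known activator of many genes that handle drugs and lipids, and the transcription factor NRF2 induces many glutathione genes together with Nqo1.

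Median deposited intensities lay between 124 and 135 on the 5 arrays, and pairs of arrays correlated at 0.946 to 0.974 across probe sets. CONTROL_421 stood apart in the ratio of its 3' to its 5' Gapdh control probe set, 1.47 against 0.767 to 0.895 on the other arrays. The same ratio for actin did not set it apart, at 1.76 against 1.44 to 1.83 on the other arrays. Without CONTROL_421, 12 of the 59 member probe sets turned their sign, against 4 to 5 without any other array. The brightest of 4 Hnf4a probe sets read 650 (null_59), 746 (null_60) and 723 (null_426) in HNF4 null colons, against 945 and 991 in control colons, which is -0.35 ± 0.17 on the log2 scale (SE, adjusted p = 0.719). Another one read 344, 348 and 358 in HNF4 null colons, against 640 and 442 in control colons, with no overlap. Its difference was -0.55 ± 0.19 (SE, limma's unadjusted p = 0.0153, adjusted p = 0.603), and -0.79 to -0.32 with 1 array left out. The remaining Hnf4a probe sets differed by 0.19 and 0.14, the last of which was -0.20 without CONTROL_421 and 0.47 without CONTROL_406. The labels name the gene only as HNF4 and do not say which part was floxed, so these probe sets may lie outside the deleted part and do not check the genotype. The paralog Hnf4g differed by 0.19 and -0.29 by its 2 probe sets. Of the tissue's markers, all 12 of gut epithelium lay above the array median on every array, and 6 of 8 hindgut and colon markers were measured, with 0 at or below 0 on any array.

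None of the 59 member probe sets passed the threshold, an adjusted p under 0.05 over all probe sets (limma, two-sided), against 28 of 22626 or 0.124% of all probe sets. There were 10 members with an unadjusted p under 0.05. Of these, 6 were lower in HNF4 null colons (10.2% of the members, against 4.33% of all probe sets): Ugt2b5, Ces1c, Mgst2, Gstp3 and both probe sets of Ugt2b34. The other 4 were higher (6.78%, against 2.82%): Ephx2, Nqo1, 1 of 2 probe sets of Gsta3 and 1 of 3 of Ces1d. Over the whole table, the split at this level moved with the scaling: 980 were lower and 638 higher after quantile normalisation, and 832 lower and 827 higher in the table as deposited, where the members gave 6 lower and 5 higher. After normalisation, 10 of the 59 had all null values below both controls (16.9%, against 11.6% of all) and 8 had them above (13.6%, against 12%). The median log2 difference, HNF4 null minus control, was -0.038 over the members and 0.016 over all probe sets. With each of the 45 genes represented by its brightest probe set, 0 passed the threshold (0.137% of all genes), 5 were lower at an unadjusted p under 0.05 (4.24% of all genes) and 2 higher (2.6%).

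**Figure D1:**
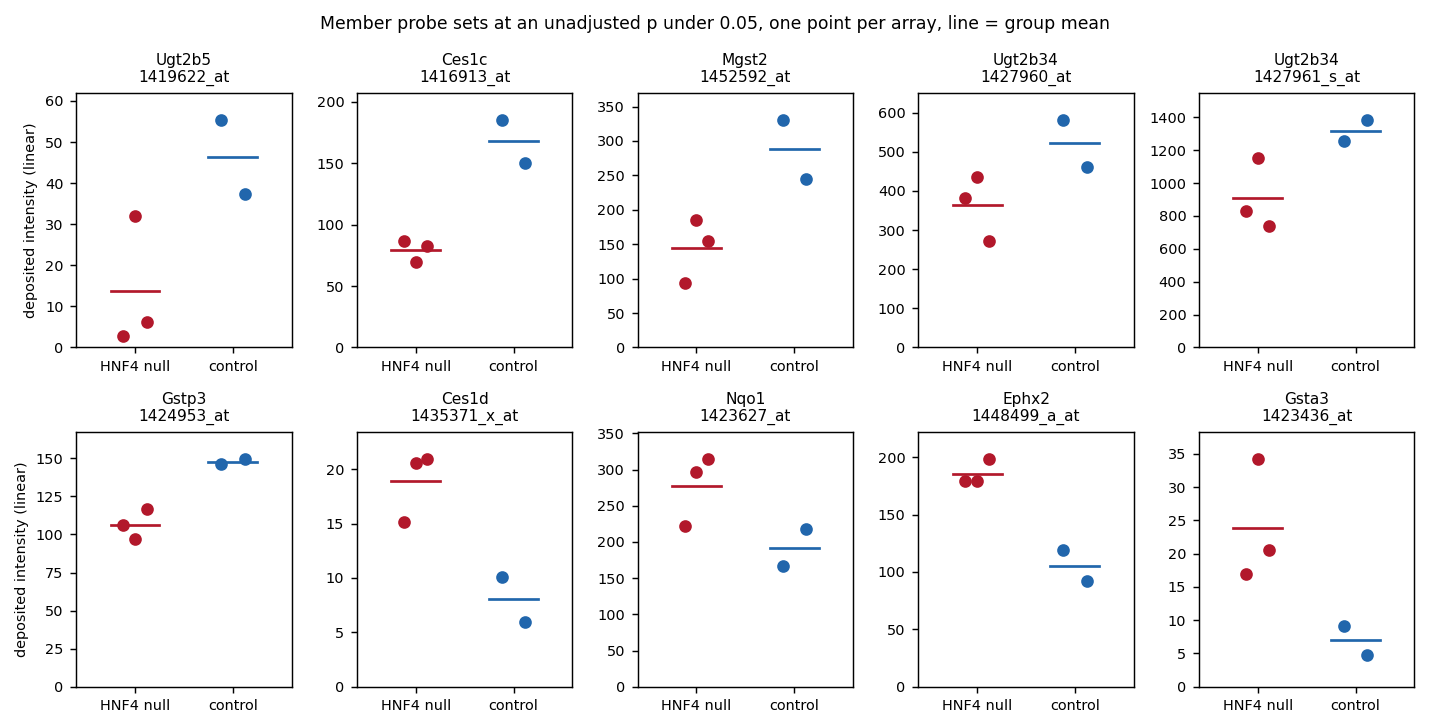
Deposited linear intensity on each array (points) and the group mean (lines) for the 10 member probe sets at an unadjusted p under 0.05, HNF4 null at the left of each panel and control at the right. In each panel the 3 null points lie on 1 side of both control points.

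In 53 of 59 member probe sets the log2 difference was under 0.5 in size. The median size was 0.22 over the members and 0.16 over all probe sets. In 50 the 95% interval excluded a 2-fold difference in both directions on this log2 scale, with a constant added to the intensities before the logarithm. The intervals are from the same fit and not adjusted for the number of probe sets. The constant shrinks the differences of dim probe sets, so for these a 2-fold difference in intensity is not excluded. A dim Ces1d probe set among the 50 had mean intensities of 18.9 in HNF4 null and 8.05 in control colons. The 9 whose interval reached 2-fold were those of Ces1c, Ces2a, Ces2g, Ephx2, both of Gsta3, Gstt2, Mgst2 and Ugt2b5. Members were read at all levels: 29 lay above the array median on all 5 arrays and 24 below it on all 5, and 0 read at or below 0 on any array.

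**Figure D2:**
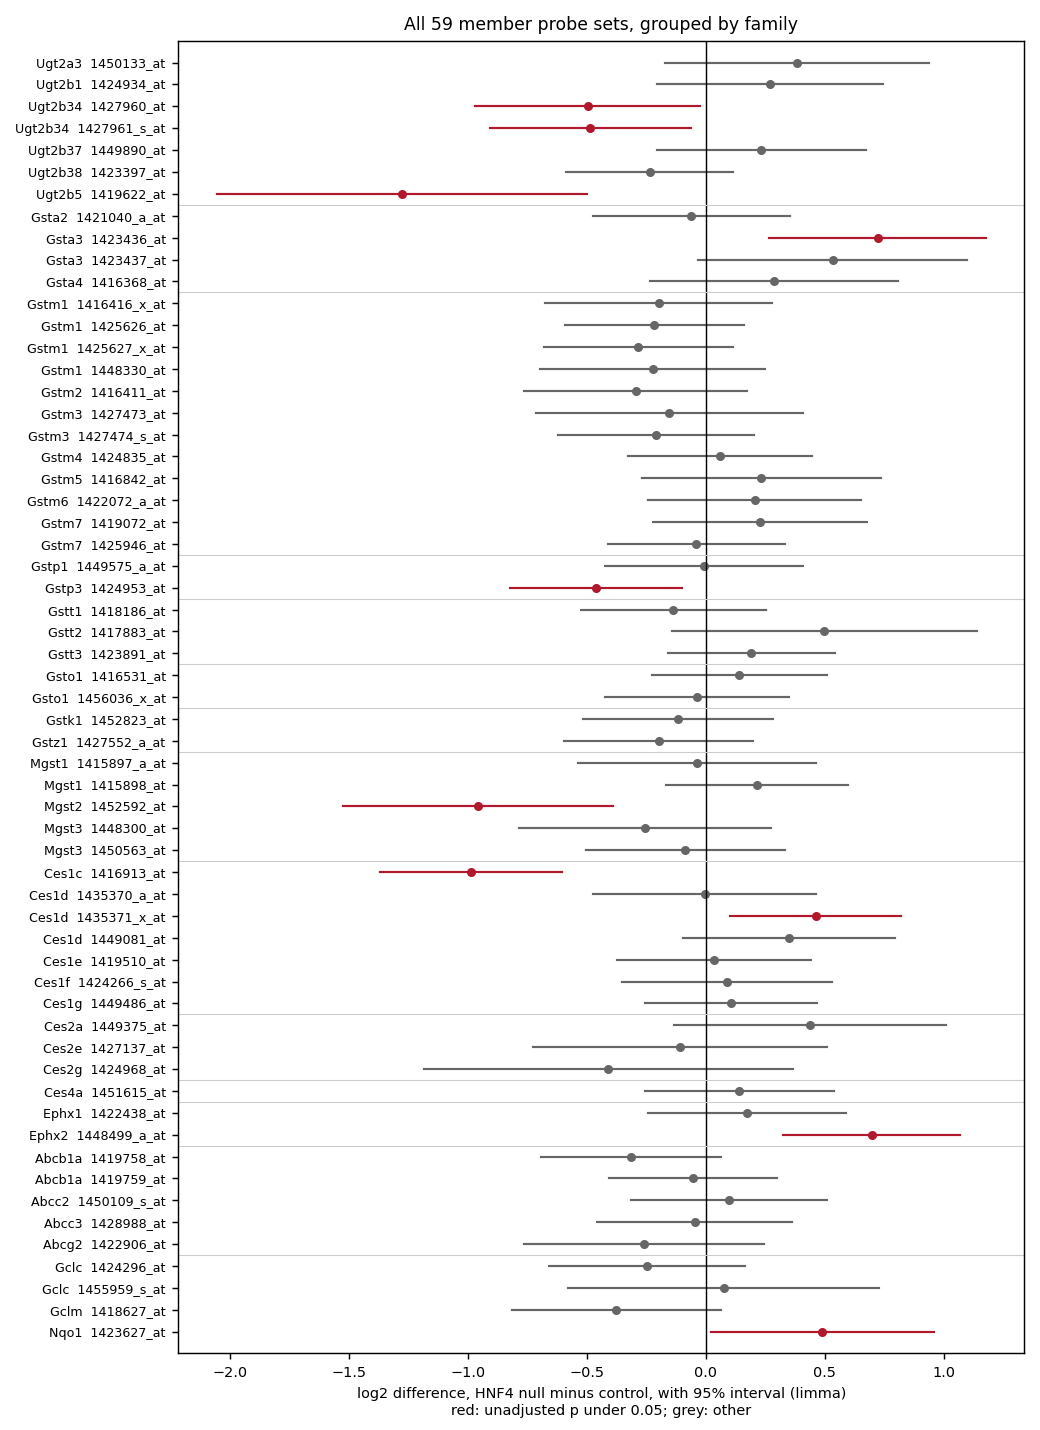
Log2 difference (HNF4 null minus control) and 95% interval of all 59 member probe sets, grouped by family and marked where the unadjusted p is under 0.05. Most intervals include 0, and the Ugt2, Ces1 and Gstm families hold members on both sides of it.

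The differences are per amount of colon RNA, in which fewer cells of a type and less RNA per cell cannot be told apart. Some epithelial markers were also lower: at an unadjusted p under 0.05, 4 of 12 were lower (Epcam by -0.66, Vil1 by -0.74, Cdx1 by -0.78 and Cdh17 by -0.86 on the log2 scale) and 0 higher, while the other 8 differed by -0.24 (Cdh1) to 0.38 (Elf3). The 4 are 33.3% of the list, against 4.24% of all genes lower and 2.6% higher at this level. The summed intensity of the 12 was 13696 to 17961 in HNF4 null and 17791 to 18713 in control colons. Hindgut and colon markers summed to 789 to 961 in null and 1552 to 1579 in control colons. Of these markers, 4 of 6 (66.7%) were lower at an unadjusted p under 0.05 and 0 higher, and the water channel Aqp8 passed the threshold. Much of the gap between these sums lay in Aqp8 (mean 72.2 in null and 477 in control colons) and Hoxb13 (294 and 491). Car4 lay above 0 (0.19). Liver markers summed to 781 to 1023 in null and 906 to 1114 in control colons over 8 genes, with 0 of 8 at an unadjusted p under 0.05. Some other lists lay on the opposite side. Of 8 smooth muscle markers 7 were above 0, 2 of them at an unadjusted p under 0.05 (Myh11 0.57 and Tagln 0.56). With 1 array left out, Myh11 ranged from 0.22 to 0.92 and Tagln from 0.25 to 0.86. The deposited Myh11 values of the groups overlapped. Smooth muscle sums were 15044 to 16671 in null and 12713 to 15601 in control colons. All 6 endothelial markers were above 0, with 0 at an unadjusted p under 0.05. Their sums were 999 to 1200 in null and 914 to 949 in control colons. Fibroblast markers lay on both sides, 3 below 0 and 4 above. Their sums were 8839 to 11736 in null and 10218 to 11981 in control colons. Of 7 macrophage and leukocyte markers, 6 were below 0 and 1 above, with 1 lower at an unadjusted p under 0.05 (Cd14 -0.61). Erythroid markers were divided, 2 below 0 and 2 above. Of 6 enteric neuron and glia markers, 5 were above 0 and 1 below. The part of these cell types in the member differences was not tested.

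Upstream windows are shown for Ugt2b5 and Ces1c, the members with the 2 largest differences below 0, and for Gsta3 and Gclm. Gsta3 and Gclm share an antioxidant response core, and their differences had opposite signs. Neither passed the threshold, Gclm was -0.11 without CONTROL_421, and the brighter Gsta3 probe set overlapped between groups. Each window is the 250 bases before the gene's start, 5' to 3' on the gene's strand, from RefSeq (GRCm38.p6). Capitals mark the antioxidant core TGACNNNGC, read on the opposite strand in Gclm.
Ugt2b5, chr5:87140341-87140590, minus strand: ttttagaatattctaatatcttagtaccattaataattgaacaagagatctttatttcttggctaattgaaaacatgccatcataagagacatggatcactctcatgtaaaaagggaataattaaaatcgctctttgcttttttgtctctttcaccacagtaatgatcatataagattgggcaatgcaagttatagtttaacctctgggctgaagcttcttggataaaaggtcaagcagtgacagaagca
Ces1c, chr8:93131284-93131533, minus strand: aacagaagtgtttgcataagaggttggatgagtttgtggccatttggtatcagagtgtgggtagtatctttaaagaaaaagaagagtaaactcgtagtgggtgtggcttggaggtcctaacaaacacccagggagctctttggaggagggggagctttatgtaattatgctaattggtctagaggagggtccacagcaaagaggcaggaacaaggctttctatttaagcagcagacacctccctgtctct
Gsta3, chr1:21240335-21240584, plus strand: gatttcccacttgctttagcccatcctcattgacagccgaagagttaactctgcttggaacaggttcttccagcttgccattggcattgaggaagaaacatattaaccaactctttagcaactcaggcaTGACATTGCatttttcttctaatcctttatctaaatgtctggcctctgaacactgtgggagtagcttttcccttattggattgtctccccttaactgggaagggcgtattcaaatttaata
Gclm, chr3:122245307-122245556, plus strand: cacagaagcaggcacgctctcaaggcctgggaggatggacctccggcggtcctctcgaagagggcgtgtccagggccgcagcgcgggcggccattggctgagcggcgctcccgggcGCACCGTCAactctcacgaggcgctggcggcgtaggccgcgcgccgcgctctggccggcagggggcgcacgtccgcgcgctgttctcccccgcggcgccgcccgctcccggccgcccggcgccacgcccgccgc
Windows were found for 38 of the 45 member genes, and Abcc3, Ces1d, Ces1f, Ephx2, Gclc, Gsta4 and Gstt2 were not matched. The HNF4 core sequences CAAAGTCCA, CAAAGTTCA and CAAAGGTCA, searched on both strands, were found in the window of 1 of 38 member genes (2.63%), the pump gene Abcb1a, and in 1.31% of 27025 genes. TGACNNNGC was found in 6 of 38 (15.8%), against 11.5% of all genes: Abcc2, Gclm, Gsta3, Gstm5, Gstm7 and Mgst1. GCGTG, the core bound by the aryl hydrocarbon receptor, was found in 7 of 38 (18.4%), against 30.9%. The HNF1 core GTTAATNAT, added to the search later than the others, was found in 0 of 38, against 0.866%. A match is a run of letters in a short window and not a measured binding site.

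Among the UDP-glucuronosyltransferases, 3 of 7 probe sets were lower at an unadjusted p under 0.05 (4.33% of all probe sets) and 0 higher (2.82%). Of these 3, 2 read the same gene, Ugt2b34, and 3 of the 7 probe sets lay above 0. No probe set carried a single Ugt1 symbol. Ugt2b34, the brightest Ugt2 gene, was read by its 2 probe sets with nearly the same difference. The brighter one read 828, 1152 and 741 in null_59, null_60 and null_426, against 1256 and 1384 in CONTROL_406 and CONTROL_421. The dimmer one read 381, 437 and 273 in HNF4 null colons, against 581 and 462 in control colons. All 3 null arrays lay below both controls in each, with null_60 nearest to them. The log2 differences were -0.48 ± 0.19 (SE, unadjusted p = 0.0292, adjusted p = 0.653) and -0.50 ± 0.21 (SE, unadjusted p = 0.0410, adjusted p = 0.690). Each kept an unadjusted p under 0.05 in 2 of the 5 fits that left out 1 array. The brighter one lost it without null_59, null_426 or CONTROL_421, and the dimmer one without null_59, null_426 or CONTROL_406, where limma's unadjusted p reached 0.141 and 0.215.

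Ugt2b5, a glucuronosyltransferase of the same subfamily, had the largest difference of all members. It read 2.89, 31.9 and 6.08 in HNF4 null colons, against 55.3 and 37.3 in control colons. The groups did not overlap, null_60 lay close to CONTROL_421, and every value was below the array median. The log2 difference was -1.28 ± 0.35 (SE, unadjusted p = 0.00471, adjusted p = 0.471), or 2.42-fold lower with a 95% interval of 1.41 to 4.15. It was -1.69 without null_60 and -1.03 without null_59. The size of so dim a gene followed the constant added before the logarithm, at -2.46 with 1 and -0.56 with 64 in place of 16.

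The remaining Ugt2 genes differed less. Ugt2b38 read 45.2, 48.4 and 49.97 in HNF4 null colons, against 56.7 and 52.8 in control colons. Its groups did not overlap, at -0.24 ± 0.16 (SE, adjusted p = 0.780). Ugt2a3 (0.38), Ugt2b1 (0.27) and Ugt2b37 (0.23) lay above 0 with overlapping groups. Ugt2b genes are close paralogs, and how far each probe set separates them is uncertain, as it is for the Ces1, Gstm and Gstp genes. A further 6 probe sets were annotated to several symbols of these families and were left out; 0 of them had an unadjusted p under 0.05.

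Cytosolic and related Gst genes held 25 probe sets of 18 genes, of which 1 was lower and 1 higher at an unadjusted p under 0.05. Each is 4%, against 4.33% of all probe sets lower and 2.82% higher. The mu class, Gstm, held 12 probe sets of 7 genes, with 0 at that level and a median log2 difference of -0.18. Gstm1 was read by 4 probe sets that differed by -0.28 to -0.20. The brightest read 861, 1027 and 614 in HNF4 null colons, against 941 and 1080.2 in control colons. These groups overlapped, since null_60 exceeded CONTROL_406, and the difference was -0.22 ± 0.21 (SE, adjusted p = 0.831). The Gstm1 probe set with the smallest p read 277, 359.5 and 268 in null and 354 and 388 in control colons, with the same overlap (-0.28 ± 0.18, SE, adjusted p = 0.777). Gstm2 (-0.30) and Gstm3 (-0.21 and -0.15) also lay below 0, Gstm4 (0.061), Gstm5 (0.23) and Gstm6 (0.21) lay above it, and the 2 probe sets of Gstm7 gave 0.23 and -0.040. Gstm5 was -0.089 without CONTROL_421 and 0.56 without CONTROL_406.

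In the alpha class, Gsta3 had the largest difference above 0 of all members. Its dimmer probe set read 17.0, 34.2 and 20.6 in HNF4 null colons, against 9.19 and 4.74 in control colons. The groups did not overlap, yet all values were far below the array medians. The difference was 0.72 ± 0.20 (SE, unadjusted p = 0.00564, adjusted p = 0.493), and it was 1.48 with a constant of 1 and 0.28 with 64. The brighter probe set read 56.9, 113 and 107 in null and 47.7 and 59.04 in control colons, where null_59 lay between the controls (0.53 ± 0.25, SE, adjusted p = 0.716). Gsta4, which acts on lipid peroxidation products such as hydroxynonenal, read 323, 407 and 313 in null and 381 and 207 in control colons. The groups overlapped, and the difference of 0.29 ± 0.23 (SE, adjusted p = 0.809) was -0.088 without CONTROL_421. Gsta2 differed by -0.060.

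The pi class held 1 bright and 1 dimmer gene. Gstp3 read 106, 97.0 and 117 in HNF4 null colons, against 146 and 149 in control colons. The null arrays spread more widely than the controls but stayed below them. The difference was -0.46 ± 0.16 (SE, unadjusted p = 0.0181, adjusted p = 0.615), with an unadjusted p of 0.0505 without null_59 and 0.0849 without CONTROL_421, and under 0.05 in the other 3 fits without 1 array. Gstp1, which conjugates many electrophiles, read 1816, 2249 and 2094 in null and 1979 and 2321 in control colons. These groups interleaved, and the difference was -0.0084 ± 0.19 (SE, 95% interval -0.42 to 0.41, adjusted p = 0.995).

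In the other classes no probe set had an unadjusted p under 0.05. Gstt2, of the theta class, read 399.6, 477 and 311 in HNF4 null colons, against 405 and 183 in control colons. CONTROL_421 stood below all other arrays, and the difference of 0.50 ± 0.28 (SE, adjusted p = 0.761) was -0.0026 without it and 0.99 without CONTROL_406. Gstt3 (0.19) and Gstt1 (-0.14) differed less. Gsto1, which reduces dehydroascorbate, gave 0.14 ± 0.16 (SE, adjusted p = 0.864) and -0.037 ± 0.17 (SE, adjusted p = 0.971) by its 2 probe sets. Gstk1, an enzyme of mitochondria and peroxisomes, and Gstz1, which acts in tyrosine breakdown, differed by -0.12 ± 0.18 (SE, adjusted p = 0.898) and -0.20 ± 0.18 (SE, adjusted p = 0.824).

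Of the membrane-bound Mgst genes, Mgst2, which also makes leukotriene C4, was the 1 gene of 3 with an unadjusted p under 0.05. It read 93.2, 185 and 154 in HNF4 null colons, against 330.4 and 245 in control colons. All null arrays were below both controls, with null_59 lowest. The difference was -0.96 ± 0.25 (SE, unadjusted p = 0.00396, adjusted p = 0.437), or 1.94-fold lower (95% interval 1.31 to 2.88), and it kept an unadjusted p under 0.05 in all 5 fits without 1 array. Mgst1, an abundant enzyme of the endoplasmic reticulum and outer mitochondrial membrane, read 659.7, 1030.5 and 939.6 in null and 854 and 1047 in control colons by its brighter probe set. These groups overlapped (-0.038 ± 0.22, SE, adjusted p = 0.977), and its dimmer probe set differed by 0.22 ± 0.17 (SE, adjusted p = 0.802) with no overlap. Mgst3 differed by -0.25 and -0.085 by its 2 probe sets. The brighter one read 764, 781 and 682 in null and 1273 and 680 in control colons, with CONTROL_406 above all other arrays, and was -0.67 (unadjusted p = 0.0105) without CONTROL_421 and 0.15 without CONTROL_406.

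Nqo1 and the genes of glutathione supply, all known NRF2 targets, differed in sign. Nqo1, the quinone reductase, read 222, 297 and 314 in HNF4 null colons, against 166 and 218 in control colons. The lowest null value, null_59, was just above CONTROL_421. The difference was 0.49 ± 0.21 (SE, unadjusted p = 0.0420, adjusted p = 0.691), and it was 0.28 (unadjusted p = 0.287) without CONTROL_406, with an unadjusted p of 0.0978 without null_60 and 0.116 without null_426. Gclm, the modifier subunit of glutamate-cysteine ligase, which makes the first step of glutathione synthesis, read 211, 189 and 195 in null and 218 and 312 in control colons. The groups barely separated, and the difference of -0.38 ± 0.20 (SE, adjusted p = 0.739) was -0.11 without CONTROL_421 and -0.63 without CONTROL_406. The catalytic subunit Gclc gave 0.076 ± 0.29 (SE, adjusted p = 0.962) in the brighter of its 2 probe sets and -0.25 in the dimmer.

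Among the carboxylesterases, Ces1c, the esterase of mouse plasma, had the smallest p of all members. It read 86.3, 69.4 and 82.9 in HNF4 null colons, against 185 and 150.3 in control colons. Both controls were far above all 3 null arrays. The difference was -0.99 ± 0.17 (SE, unadjusted p = 0.000232, adjusted p = 0.117), or 1.98-fold lower (95% interval 1.52 to 2.59), and it was -1.08 to -0.88 in the 5 fits without 1 array. Its adjusted p lay between 0.0611 and 0.331 over the alternatives of processing that kept it, so it was called under none of these; the filter on dim probe sets left it out.

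Ces1d, a lipid hydrolase next to Ces1c on chromosome 8, was read by 3 probe sets that disagreed. The brightest read 572, 618 and 764 in HNF4 null colons, against 555 and 501 in control colons (0.35 ± 0.20, SE, adjusted p = 0.760). A dim one read 15.2, 20.6 and 20.9 in null and 10.1 and 5.98 in control colons. These 2 lay higher in null colons with no overlap, the dim one by 0.46 ± 0.16 (SE, unadjusted p = 0.0172, adjusted p = 0.615), which was 0.98 with a constant of 1 and 0.17 (unadjusted p = 0.134) with 64. Without CONTROL_421 it was 0.44 (unadjusted p = 0.0697). The third read 13.6, 9.17 and 6.68 in null and 6.80 and 11.3 in control colons and differed by -0.0047 ± 0.21 (SE). Ces1e (0.034), Ces1f (0.090) and Ces1g (0.11) lay near 0. Ces2a, an intestinal carboxylesterase, read 175, 135 and 233 in null and 101 and 153 in control colons with overlap (0.44 ± 0.25, SE, adjusted p = 0.765), and Ces2g (-0.41), Ces2e (-0.11) and Ces4a (0.14) overlapped too.

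Of the epoxide hydrolases, Ephx2, the soluble enzyme that opens epoxides of fatty acids, was higher at an unadjusted p under 0.05. It read 179.5, 179 and 198 in HNF4 null colons, against 119 and 92.5 in control colons. The null arrays lay close together and above both controls. The difference was 0.70 ± 0.17 (SE, unadjusted p = 0.00210, adjusted p = 0.344), or 1.62-fold higher (95% interval 1.25 to 2.10), and it kept an unadjusted p under 0.05 in all 5 fits without 1 array. Ephx1, the microsomal enzyme that opens epoxides of foreign compounds, differed by 0.17 with overlapping groups.

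The export pumps had 0 of 5 probe sets at an unadjusted p under 0.05. Over all probe sets, 4.33% were lower and 2.82% higher at this level. Abcg2, the breast cancer resistance protein of apical membranes, read 219, 237 and 151 in HNF4 null colons, against 278 and 203 in control colons. These groups overlapped (-0.26 ± 0.22, SE, adjusted p = 0.819). Abcb1a, P-glycoprotein, was dim and differed by -0.31 ± 0.17 (SE, adjusted p = 0.748) and -0.054 ± 0.16 (SE, adjusted p = 0.950) by its 2 probe sets. Abcc2 and Abcc3, which export glucuronide and glutathione conjugates, differed by 0.097 and -0.046.

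**Figure D3:**
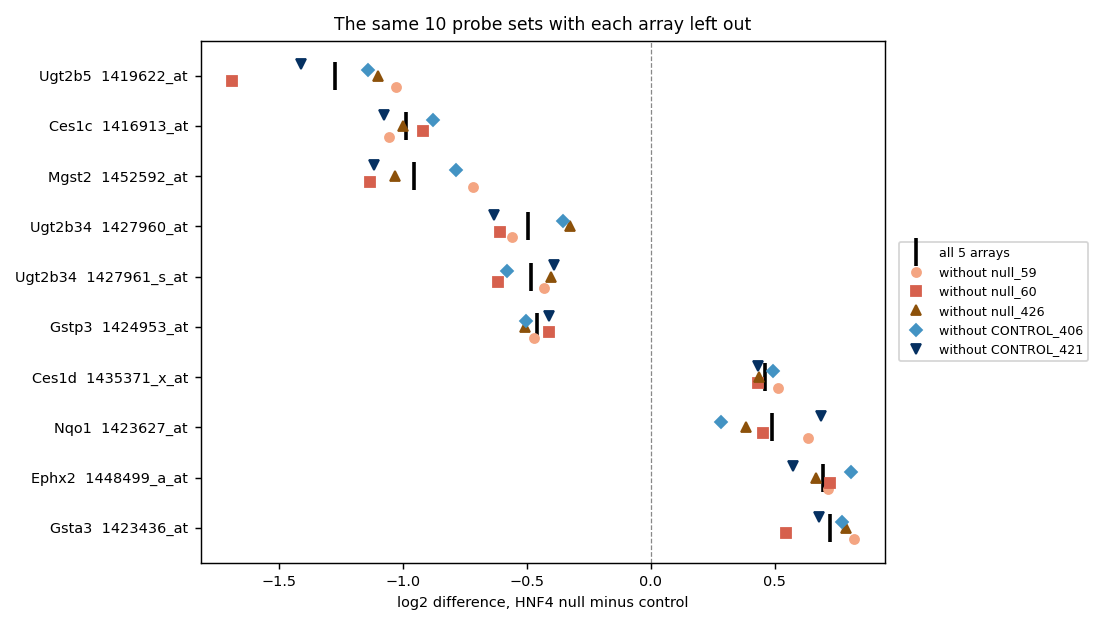
Log2 difference (HNF4 null minus control) of the 10 member probe sets at an unadjusted p under 0.05, with all 5 arrays and with each array left out in turn. Each keeps its sign in all 5 fits, and Ugt2b5 spreads most, at -1.69 to -1.03.

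Many members are neighbours in the genome, so it was asked whether neighbours differed alike. Grouping member genes that lay within 15 protein-coding genes of each other gave 7 groups with 30 genes. In 6 of the 7, brightest probe sets lay on both sides of 0. Many of these differences were small beside their SE, and such differences readily take both signs. Of the 59 member probe sets, 21 changed sign in at least 1 fit without 1 array. The count therefore does not settle whether neighbours differed alike. On chromosome 5, Ugt2b34, Ugt2b5 and Ugt2b38 lay below 0 and Ugt2b1, Ugt2b37 and Ugt2a3 above it. On chromosome 8, Ces1c at -0.99 stood beside Ces1d, Ces1e, Ces1f and Ces1g at 0.034 to 0.35. The exception was the pair Gstp1 and Gstp3 on chromosome 19, both below 0.

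**Figure D4:**
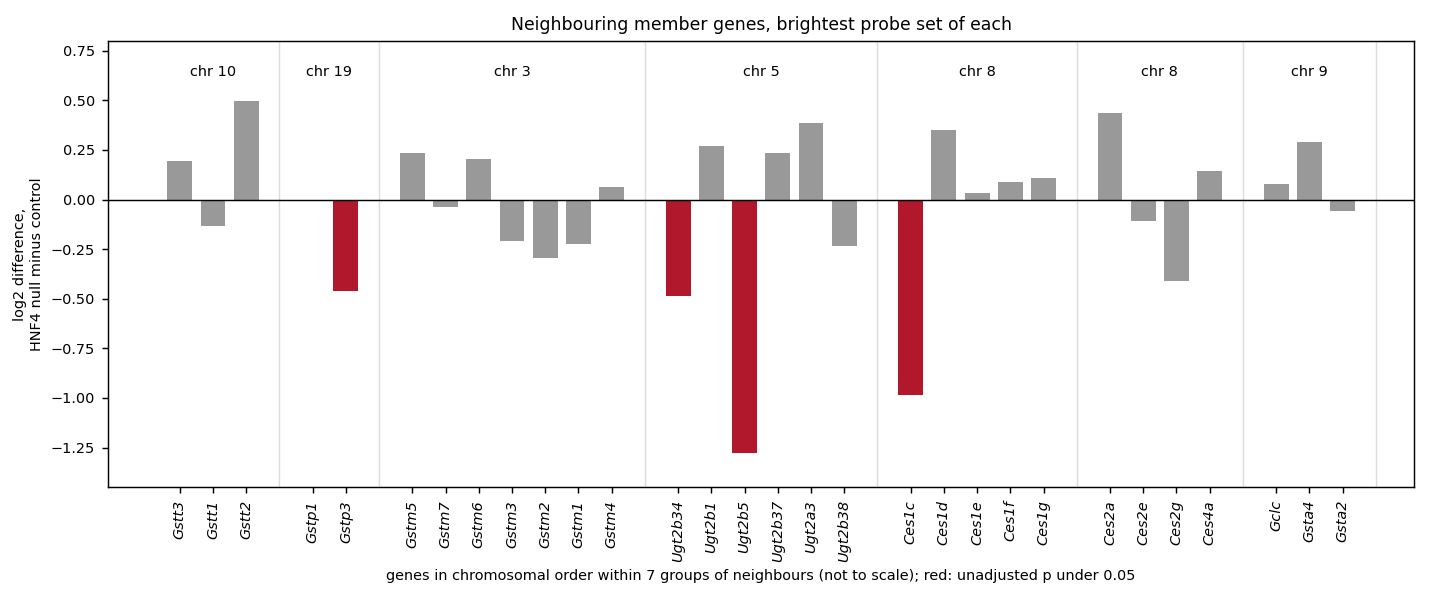
Log2 difference (HNF4 null minus control) of member genes in genomic order within the 7 groups of neighbours, by each gene's brightest probe set, with distances not to scale. In 6 groups bars lie on both sides of 0, and in the Ces1 group 1 gene, Ces1c, lies below 0 and 4 above.

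The other genes of conjugation, redox defence and drug transport were read by 8 lists with 112 measured genes, each by its brightest probe set. Of the 112 genes, 2 passed the threshold (1.79%, against 0.137% of all genes). At an unadjusted p under 0.05, 8 were lower (7.14%, against 4.24%) and 1 higher (0.893%, against 2.6%). Their median was -0.066, against 0.021 over all genes. The lists were chosen with earlier results of these data known, so these shares do not test the lists against all genes. Both genes past the threshold were sulfotransferases, Sult1b1 (-2.36 ± 0.23, SE, adjusted p = 0.00809) and Sult1d1 (-1.68 ± 0.24, SE, adjusted p = 0.0432), among 12 measured genes of sulfate conjugation. Sult1b1 read 38.3, 45.7 and 22.8 in HNF4 null colons, against 261 and 218 in control colons. Its adjusted p was 0.0936 with a constant of 1. Sult1d1 had an adjusted p of 0.109 without null_59, 0.126 without null_60, 0.185 without null_426 and 0.0726 without CONTROL_406, and 0.174 and 0.105 with constants of 1 and 64. The other Sult1d1 probe set also passed the threshold, with no overlap, at -1.46 ± 0.21 (SE, adjusted p = 0.0432). It was -1.65 to -1.34 with 1 array left out, and it did not pass under every alternative of processing. Sult5a1 lay above 0 with no overlap (0.29 ± 0.16, SE, adjusted p = 0.759). Whether the sulfotransferases differed more than the members was not tested.

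For glucuronidation, 0 of 7 measured genes of UDP-glucuronate supply and removal had an unadjusted p under 0.05 by the brightest probe set. Over all genes, 4.24% were lower and 2.6% higher at this level. Ugdh, which makes UDP-glucuronate, read 492, 572 and 443 in HNF4 null colons, against 912 and 561 in control colons. The deposited values of null_60 and CONTROL_421 overlapped, and the difference was -0.43 ± 0.21 (SE, adjusted p = 0.719). It was -0.74 (unadjusted p = 0.00768) without CONTROL_421 and -0.13 (unadjusted p = 0.559) without CONTROL_406. Ugp2, which makes its precursor UDP-glucose, was read by 5 probe sets that all lay below 0, at -0.59 to -0.16, with an unadjusted p under 0.05 in 2 of them. Pgm1 differed by 0.27. Of 10 acetyl, methyl and amino acid conjugation genes, 0 had an unadjusted p under 0.05 (As3mt -0.28, Nat1 -0.25, Gnmt 0.26).

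For glutathione, 2 of 24 measured genes of synthesis, recycling and breakdown were lower at an unadjusted p under 0.05 and 0 higher. The 2 are 8.33%, against 4.24% of all genes lower and 2.6% higher. Glutaredoxin, Glrx, differed by -0.79 (-0.46 without null_426), but by 0.23 (-0.47 without CONTROL_421) in its other probe set, and Anpep, a brush border aminopeptidase, by -0.68. Chac1 lay above 0 with no overlap (0.35 ± 0.17, SE, adjusted p = 0.728). Of 22 measured genes of the NRF2 pathway, 2 were lower at that level (9.09%, against 4.24% of all genes) and 0 higher (2.6%). The 2 were the biliverdin reductase Blvrb (-0.56) and the thioredoxin reductase Txnrd1 (-0.42, and -0.35 and -0.32 in its other probe sets). Catalase, Cat, differed by -0.32 with no overlap, and by -0.16 in its other probe set. Nqo1, of the members, had the opposite sign. None of these passed the threshold. Of 13 measured xenobiotic sensing factors, 0 had an unadjusted p under 0.05 by the brightest probe set. The aryl hydrocarbon receptor Ahr was at -0.36 (-0.12 in its other probe set) and its partner Arnt at 0.34 (-0.057 in its other probe set).

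Among 14 other measured drug transporters, 1 was lower and 1 higher at an unadjusted p under 0.05. Each is 7.14%, against 4.24% of all genes lower and 2.6% higher. Slco2a1, the prostaglandin transporter, read 134, 122 and 103 in HNF4 null colons, against 251 and 223 in control colons. All null arrays lay below both controls, at -0.93 ± 0.18 (SE, adjusted p = 0.172), and its other probe sets gave -0.40 and -0.35. The carnitine transporter Slc22a5 differed by 0.42, but by 0.040 in its other probe set. Abcc6 differed by 0.30 with no overlap (adjusted p = 0.771). Of 10 other measured esterases and hydrolases, 1 was lower at that level (10%, against 4.24% of all genes) and 0 higher (2.6%). It was the hydrolase Cmbl (-0.75 ± 0.19, SE, adjusted p = 0.423). Paraoxonase 2, Pon2, gave -0.39 and 0.46 by its 2 probe sets, and Pon3 gave -0.33.

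**Figure D5:**
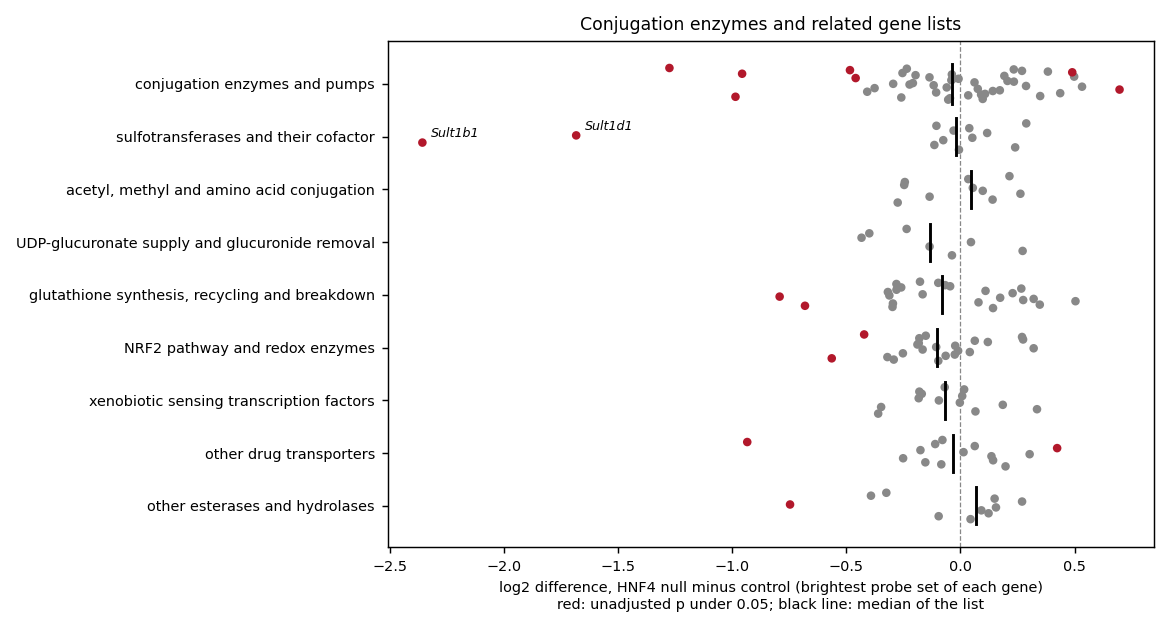
Log2 difference (HNF4 null minus control) of each measured gene (points) in the members and in the 8 lists, by the brightest probe set, red where the unadjusted p is under 0.05, with a black line at the median. Most points lie near 0 in every list, and the lowest are Sult1b1 at -2.36 and Sult1d1 at -1.68.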

How the data were processed

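The authors deposited 1 linear intensity per probe set and array; the summarisation, background step and scaling are not given in the sources used here. RNA was purified on Qiagen columns and labelled with biotin, per the labels' protocols. Of 22690 probe sets, the array maker's 64 controls were left out. Symbols came from a platform annotation of 2016.

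Values below 0 (196 values) were set to 0, log2(intensity + 16) was taken and the arrays were quantile normalised. A fold change is on this scale and understates the change of dim genes. HNF4 null was compared with control by limma's lmFit and eBayes (version 3.58.1, R 4.3.3, two-sided tests), with Benjamini-Hochberg adjustment over 22626 probe sets and an adjusted p under 0.05 as the threshold. The number of arrays limits the precision. P-values measure only the spread between these 5 samples, with each probe set's variance drawn by limma towards that of all probe sets. Intensities in the text are the deposited values; whether groups overlap was read after normalisation unless stated.

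Members and lists were chosen with earlier results of these data known. Named were the member probe sets with the 12 smallest p in each direction whose groups did not overlap, in each family the brightest probe set and the one with the smallest p, all other probe sets of genes named for non-overlap, the 3 smallest p of each list, and Hnf4a and Hnf4g. Other members are given by their differences. The 12 alternatives covered scaling, the constant (1 or 64), a filter on dim probe sets, the variance model, array weights and each array left out. The code was tested on simulated data.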

Additional observations from a re-analysis of the deposited data

How the results depend on the processing

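Under all 12 alternatives 0 members passed the threshold. Of 32 named member probe sets, 9 changed sign under at least 1. The 28 probe sets past the threshold over the whole table became 14 with a constant of 1, 17 without dim probe sets and 45 with array weights, and 8 (without null_60) to 104 (without CONTROL_406) with 1 array left out. Without dim probe sets 32 members remained, of which 3 were lower and 2 higher at an unadjusted p under 0.05 and 5 lay wholly below and 5 wholly above the controls (4.84%, 2.95%, 12.1% and 12.7% of all probe sets kept). With 1 array left out, 3 to 7 were lower, 3 to 7 higher, 10 to 19 wholly below and 10 to 19 wholly above, while over all probe sets these shares were 2.57% to 6.13%, 1.71% to 5.16%, 15.7% to 27.0% and 17.3% to 28.7%. The members' median was -0.073 with median centring and -0.062 to 0.023 with 1 array left out. The dimmest Ces1d probe set turned to 0.042 as deposited, 0.0044 with a constant of 1 and 0.16 with array weights, and the brighter Abcb1a one to 0.043 as deposited. With 1 array left out, sign changes gave ranges of -0.23 to 0.22 for that Ces1d probe set, -0.088 to 0.66 for Gsta4, -0.21 to 0.13 for the brighter Gsto1 probe set, -0.18 to 0.17 for Gstp1, -0.0026 to 0.99 for Gstt2, -0.29 to 0.055 for Gstk1, -0.21 to 0.15 for the brighter Mgst1 probe set, -0.14 to 0.40 for the brighter Gclc probe set and -0.060 to 0.43 for Hnf4g. The cause was not tested. No paired analysis was possible because the groups share no replicate numbers.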
